A study of Mus musculus with 8 samples.

Results

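The subunits of the oxidative phosphorylation complexes were read from 84 probe sets, of the 22225 on the array that matched a single gene symbol. The members were chosen by symbol alone: names that begin with Ndufa, Ndufb, Ndufc, Ndufs or Ndufv and a number, the Sdha to Sdhd genes, and names that begin with Uqcr, with Cox4 to Cox8 or with Atp5. They stand for 77 of the 21515 genes measured, of which 33 belong by name to complex I, 4 to complex II, 7 to complex III, 17 to complex IV and 16 to complex V. The pseudogenes Uqcrh-ps1 and Atp5c1-ps are among the 77, which leaves 75 genes for subunits and their isoforms. For the 7 members with 2 probe sets the brighter was used. A further 6 probe sets carry a second symbol beside one of the family and are described separately. The 13 subunits encoded by mitochondrial DNA were not analysed here.

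Oxidative phosphorylation takes place in the inner mitochondrial membrane. Complex I passes electrons from NADH, and complex II those from succinate, to ubiquinone. Complex III passes them on to cytochrome c and complex IV to oxygen, and complexes I, III and IV pump protons as they do so. Complex V, the ATP synthase, lets the protons back and makes ATP. Resting B cells are small cells with a low demand for ATP, and activated B cells grow and divide, with more mitochondrial mass and respiration.

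RNA of mouse spleen B cells was hybridised to 8 Affymetrix whole-transcript arrays, 2 for each of 4 groups. All groups started from spleen cells depleted of cells with CD43. LMP1 cells carried the alleles LMP1flSTOP/YFPflSTOP and YFP control cells YFPflSTOP/+. Both came from female (C57BL6XBALBc) F1 mice, received TAT-Cre, a recombinase that enters cells and removes the stop cassette, and were sorted for YFP 2 days later. LMP1 is a membrane protein of Epstein-Barr virus that signals without a ligand through many adaptors of the receptor CD40. Naive control cells came from male B6/J mice and went directly into RNA extraction. CD40-activated cells were from such mice too and received an antibody against CD40 for 2 days. The LMP1 and YFP control arrays were taken over from an earlier series. LMP1 and YFP control thus share strain, sex, TAT-Cre, culture, sort and array set. CD40-activated and naive control cells share strain, sex and array set, and differ in culture as well as in the antibody. In every comparison across these pairs, strain, sex, TAT-Cre, sort and array set cannot be told apart from the groups. Between YFP control and naive control, culture cannot be told apart either. The labels call the replicates biological and do not give the number of mice behind each array.

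Values are the deposited log2 expression levels, whose median over all probe sets was 5.52 to 5.68 on the 8 arrays, and changes are differences of group means on that scale ± the model's standard error. Each group had 2 arrays. A gene rose or fell where limma's test, adjusted by Benjamini-Hochberg over all 21515 genes, gave p under 0.05. All 7 measured B cell markers lay above the array median on every array. Their mean level was 10.45 and 10.51 in LMP1, 11.75 and 11.35 in YFP control, 11.26 and 11.26 in naive control and 11.43 and 11.37 in CD40-activated cells. With LMP1, 5 of the 7 fell (Blk, Cd22, Cd79a, Cd79b and Ighm). Of 7 T cell markers 7 were lower in CD40-activated than in naive control cells, and of 8 markers of NK cells 6. Their mean levels in naive control were 8.40 and 8.20 for T cell and 6.98 and 6.52 for NK cell markers, against 5.20 to 5.92 and 4.43 to 4.91 on the other arrays. Erythroid and platelet markers read 7.40 and 6.75 in naive control, against 4.83 to 5.33 elsewhere, and 2 of 4 were lower with CD40. Of 11 monocyte and macrophage markers 4 were lower and 1 higher, of 9 neutrophil markers 1 was lower, and of 7 dendritic cell markers 1 was lower and 1 higher. The YFP control arrays were more than 1 log2 apart at 4.42% of genes, the naive controls at 1.69%. The spread of all levels differed between the arrays, from an SD of 2.15 and 2.13 in LMP1 to 1.93 and 1.88 in naive control. Its part in the results was not tested on its own. Counts after quantile normalization within each set, which gives the arrays of a set the same distribution, are given below. Genes above the median mean level, here called bright, include 68 of the 77 members, and the share called is also given for them. In bulk RNA, fewer cells of a type and less RNA per cell cannot be told apart, and quantile-normalized levels are relative to the rest of the RNA.

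The members were brightest on the LMP1 arrays. Their median level was 8.56 and 8.54 in LMP1 cells, 8.40 and 8.34 in CD40-activated cells, 8.02 and 7.69 in YFP control and 7.72 and 7.69 in naive control. Both LMP1 arrays lay above all others for 34 members (44.2%), as for 17.3% of all genes and 31.2% of bright genes. Both naive control arrays lay below all others for 29 members (37.7%), as for 13.2% of all genes and 22.6% of bright genes. CD40-activated cells were highest for 8 members (10.4%; 5.18% of all and 8.67% of bright genes) and YFP control lowest for 10 (13%; 5.97% and 8.98%). Naive control was highest for 4, namely Ndufa4l2, Uqcrh-ps1, Atp5g1 and Atp5j2, as for 13.7% of all and 11% of bright genes. The map of the members by array shows these patterns.

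**Figure D1:**
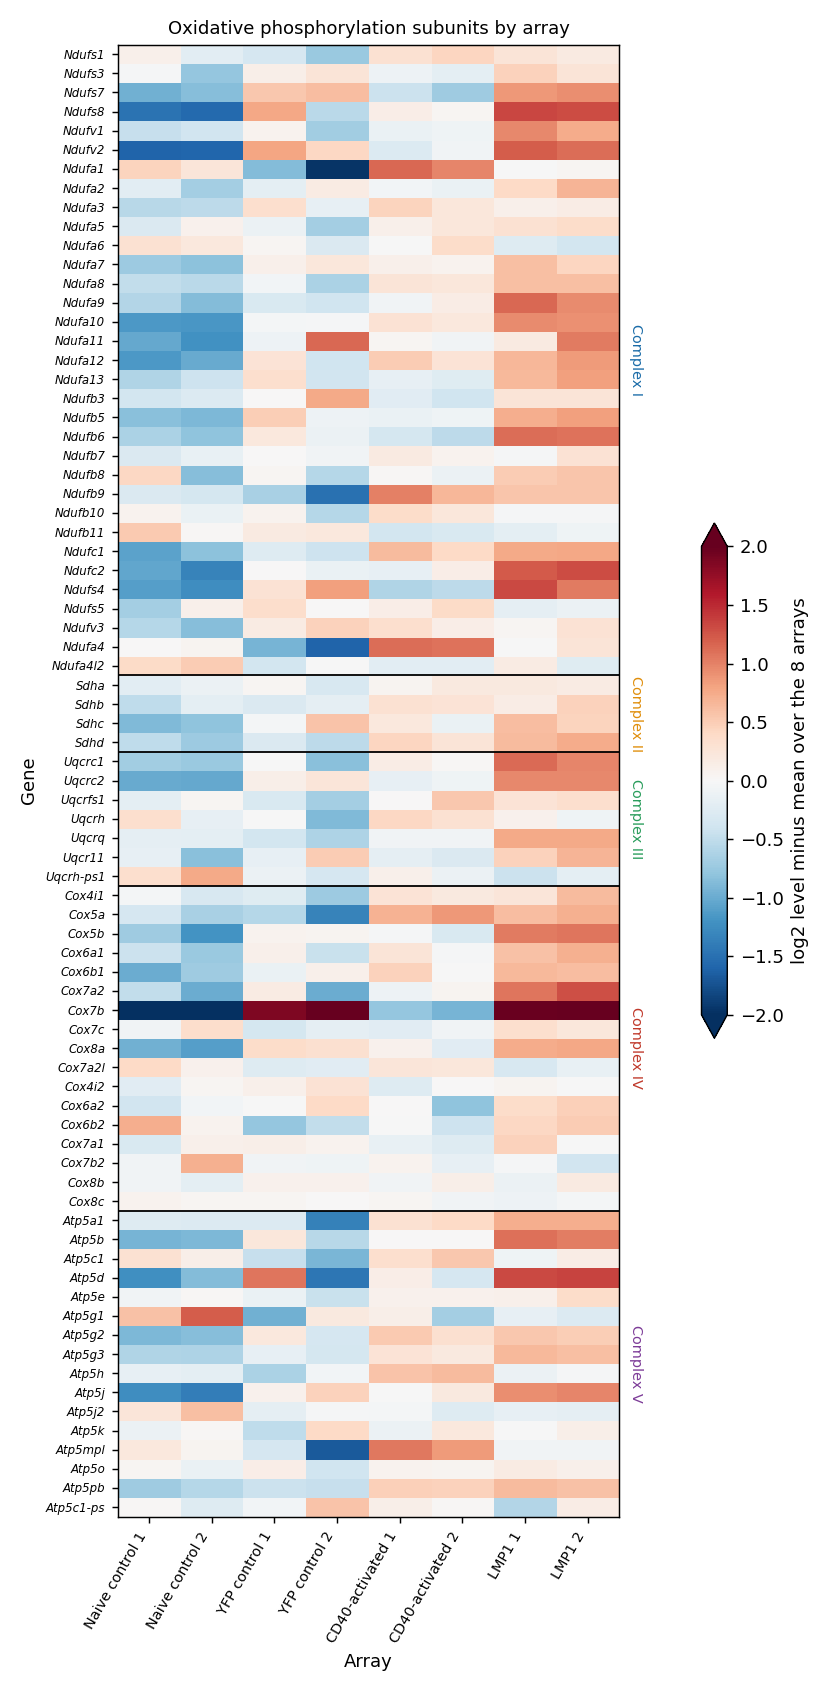
Level of each of the 77 members (vertical axis, by complex) on each of the 8 arrays (horizontal axis), as log2 level minus the member's mean over the 8 arrays; the colour scale ends at -2 and 2. The LMP1 columns are mostly red and the naive control columns mostly blue, Cox7b lies beyond the scale in several columns, and the YFP control columns differ from each other in rows such as Atp5d and Ndufa1.

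The first comparison, LMP1 against YFP control, asks for the effect of LMP1 among cells that were handled alike. Of the 77 members 34 rose (44.2%) and 0 fell, where 14.9% of all genes rose, 27.7% of bright genes rose, and 8.31% of all and 11.8% of bright genes fell. The median change of the members was 0.58, against -0.08 over all genes and 0.15 over bright genes. The change was above 0 for 65 members, as for 42% of all genes and 58.4% of bright genes. By complex, 16 of 33 members rose in complex I, 1 of 4 in complex II, which at 25% is near the share of bright genes, 4 of 7 in complex III, 7 of 17 in complex IV and 6 of 16 in complex V. The B cell markers moved the other way in this comparison, with a median change of -1.17, and their part in the result was not tested. With the arrays quantile-normalized within each set, 26 of these 34 members rose and none besides (Ndufs1, Ndufv2, Ndufa5, Ndufa12, Ndufa13, Cox6b1, Atp5c1 and Atp5j were not called), the median was 0.36, and the split of all genes moved from 3208 up and 1787 down to 2545 and 2217. With LMP1 1 or LMP1 2 left out, 20 and 18 members rose, and without YFP control 2 there were 27, of which 25 were among the 34. The call held without any 1 of the 8 arrays for 17 members: Ndufa1, Ndufa4, Ndufa9, Ndufa10, Ndufb6, Ndufb9, Ndufc1, Ndufc2, Sdhd, Uqcrc1, Uqcrq, Cox5a, Cox5b, Atp5a1, Atp5b, Atp5g3 and Atp5pb.

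The second, CD40-activated against naive control, covers the antibody together with the culture. Of the 77 members 30 rose (39%) and 1 fell, where 11% of all genes rose, 21.1% of bright genes rose, and 6.65% of all and 7.89% of bright genes fell. The median change was 0.55, against -0.05 over all genes and 0.15 over bright genes, and 63 members were above 0, as 44.5% of all genes were and 60% of bright genes. In complex I 14 of 33 members rose and 1 fell. Complex II had 3 of 4 up (75%), complex III 2 of 7 (28.6%), complex IV 5 of 17 (29.4%) and complex V 6 of 16 (37.5%). The T and NK cell markers fell in this comparison, as given above, and their part in the result was not tested. Leaving out naive control 2 gave 18 members up, CD40-activated 1 gave 11 and CD40-activated 2 gave 17, while naive control 1 gave 21. The call held without any 1 array for 10 members: Ndufa10, Ndufa12, Ndufc1, Ndufc2, Ndufv2, Uqcrc2, Cox7b, Atp5g2, Atp5j and Atp5pb. Quantile normalization within each set gave 22 up, without Ndufa8, Ndufa9, Ndufb5, Sdhb, Sdhc, Uqcrc1, Cox5b and Atp5h, and a median of 0.39, with 1765 of all genes up and 1571 down in place of 2373 and 1430.

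**Figure D2:**
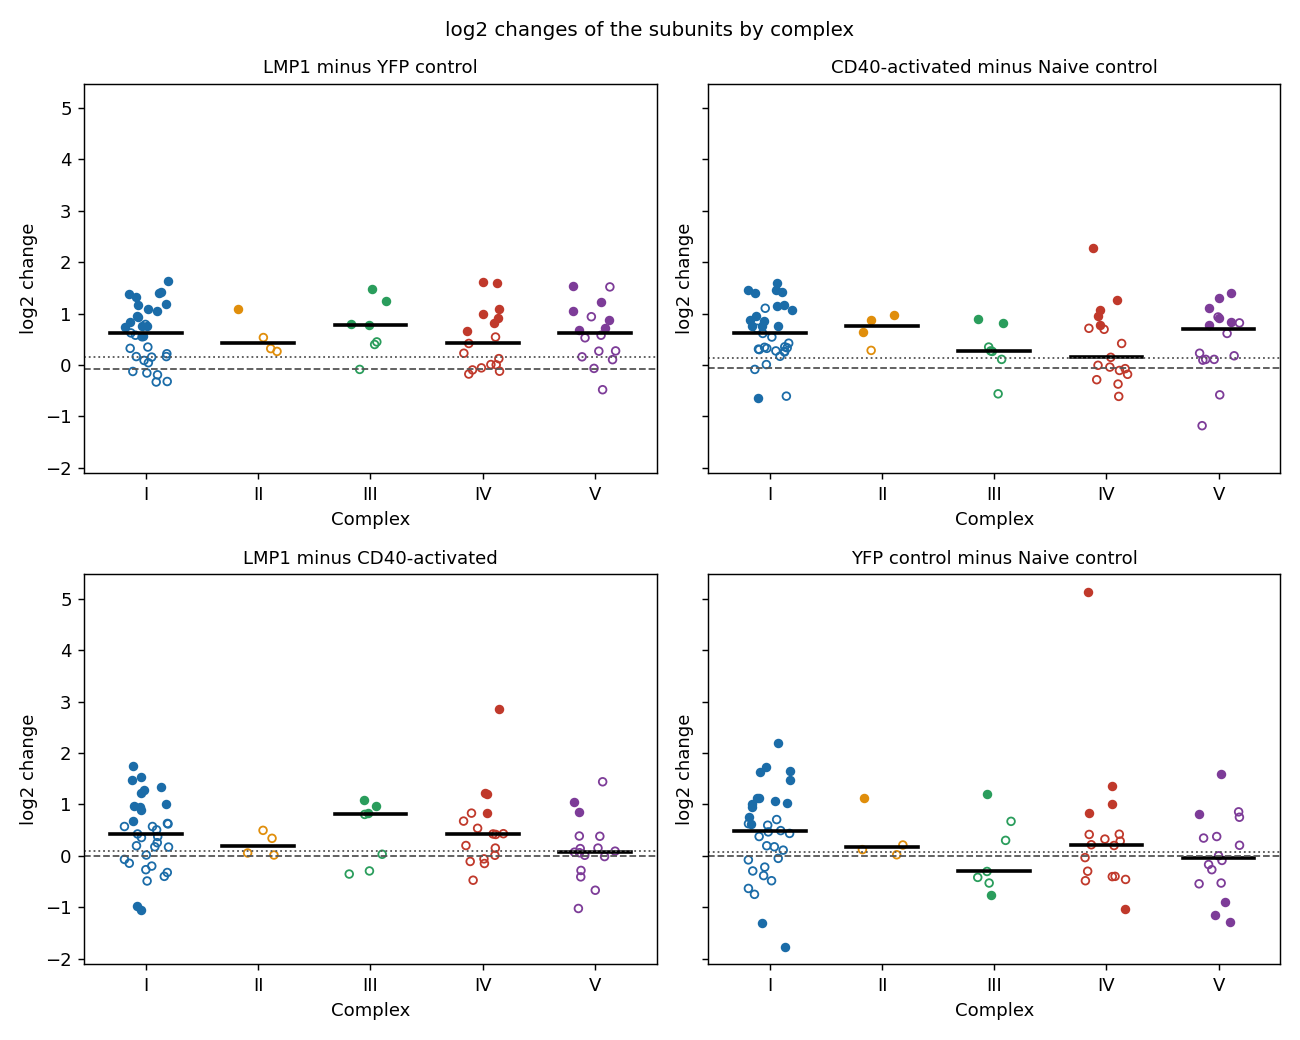
Log2 change of each member (points; filled where limma's adjusted p was under 0.05) by complex, in 4 comparisons, with the median of each complex (bar), of all genes (dashed line) and of genes above the median mean level (dotted line). In the comparisons of LMP1 with YFP control and of CD40-activated with naive control the filled points lie above both lines except for Ndufa4l2, and Cox7b stands at 5.13 between the controls.

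The pair of comparisons shares no array. Both were tested in the same fit, with the same spread for a gene in each, so their calls were not independent. Both called 20 members up, which is 58.8% of the 34 that rose with LMP1 and 66.7% of the 30 that rose with CD40 activation. On the same basis the shares were 45% and 60.8% over all genes, and 47.7% and 62.7% over bright genes, so that the second lay near the background. As a share of the set, 26% of the members rose in both, against 6.7% of all genes and 13.2% of bright genes. The 20 were Ndufs8, Ndufv2, Ndufa4, Ndufa8, Ndufa9, Ndufa10, Ndufa12, Ndufb9, Ndufc1 and Ndufc2 of complex I, Sdhd, the complex III core proteins Uqcrc1 and Uqcrc2, Cox5a, Cox5b and Cox6b1 of complex IV, and Atp5b, Atp5g3, Atp5j and Atp5pb of complex V. Across the 77 members the changes correlated with r = 0.45, a description over genes that were normalized together and differ in brightness. A call in one comparison alone does not show a difference between them, so the difference of the changes was tested for every gene. It passed for 4 members, 2 with the larger change under LMP1 (Cox6b2 and Uqcrq) and 2 under CD40 (Cox7b and Ndufv3). The CD40 change covers culture and the LMP1 change does not, so culture cannot be told apart from this difference. Neither can strain, sex, TAT-Cre, sort and array set. Among all genes 4.2% passed upward and 4.12% downward, and among bright genes 6.44% and 7.07%. This count moved with single arrays: it was 13 up and 6 down without YFP control 1, 3 and 6 without YFP control 2, 0 and 1 without either LMP1 array or CD40-activated 2, and 1 and 1 without CD40-activated 1. Of the B cell markers 4 of 7 passed downward and of the T and NK cell markers 6 of 7 and 6 of 8 upward, and their part in the result was not tested. No call was made in any of 6 comparisons for 26 members.

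**Figure D3:**
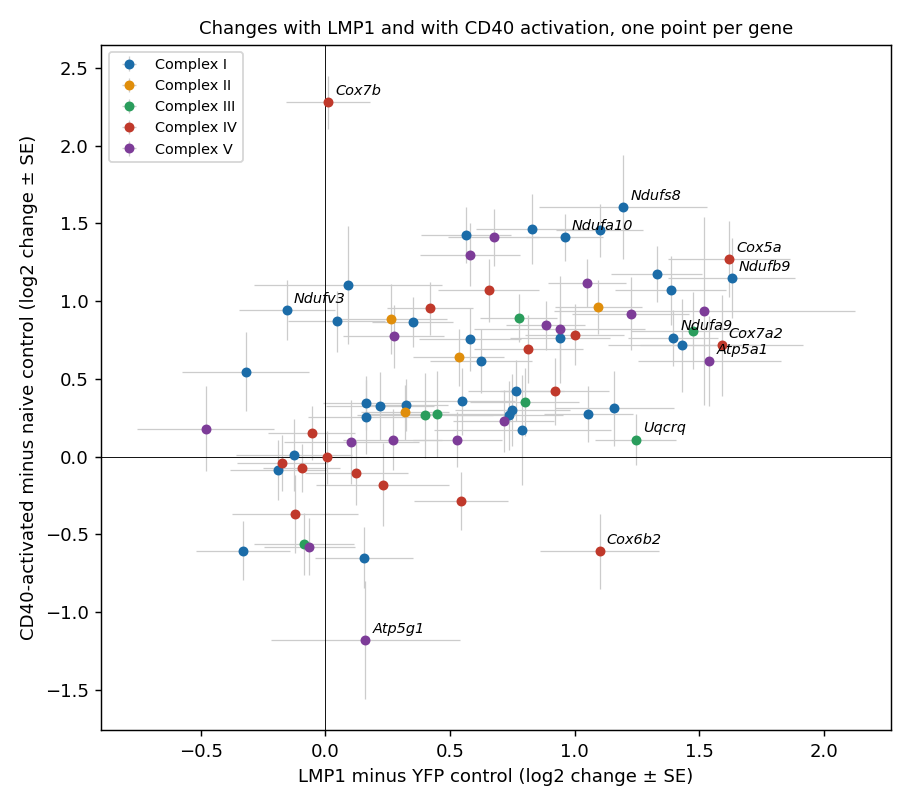
Log2 change ± standard error in LMP1 against YFP control (horizontal axis) and in CD40-activated against naive control cells (vertical axis), with 1 point for each of the 77 members, coloured by complex. Most points lie in the upper right, with Cox7b (0.01 and 2.28), Cox6b2 (1.10 and -0.61) and Uqcrq (1.25 and 0.11) apart from the others.

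In complex I, 6 of the catalytic core subunits were measured, which carry the flavin and most of the iron-sulphur clusters on the path from NADH to ubiquinone. Of these 4 rose with LMP1 (66.7%; 14.9% of all and 27.7% of bright genes) and 2 with CD40 activation (33.3%; 11% and 21.1%). Ndufv1, which binds NADH and the flavin, read 9.04 and 8.26 in YFP control, 9.92 and 9.70 in LMP1, 8.50 and 8.58 in naive control and 8.83 and 8.87 in CD40-activated cells. Both LMP1 arrays were above all others, and the change was 1.16 ± 0.24 (adjusted p = 0.00592) with LMP1 and 0.31 ± 0.24 (adjusted p = 0.428) with CD40. Without YFP control 2, the lower of the controls, the first was 0.77, and without LMP1 1 it was not called (adjusted p = 0.0637). Ndufs8, an iron-sulphur subunit beside the ubiquinone site, read 10.04 and 8.72 in YFP control, 10.59 and 10.56 in LMP1, 7.78 and 7.70 in naive control and 9.39 and 9.30 in CD40-activated cells. It rose by 1.20 ± 0.34 (adjusted p = 0.0278) with LMP1 and by 1.61 ± 0.34 (adjusted p = 0.00937) with CD40, and the YFP control arrays were so far apart that the first was 0.54 without YFP control 2 and 1.86 without YFP control 1. Leaving out any LMP1 or CD40-activated array ended that call (adjusted p up to 0.132), and leaving out naive control 2 or either CD40-activated array ended the other (up to 0.0776).

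The partner of Ndufv1, the iron-sulphur subunit Ndufv2, read 10.06 and 9.68 in YFP control, 10.48 and 10.39 in LMP1, 7.66 and 7.68 in naive control and 9.0 and 9.19 in CD40-activated cells. Its 4 pairs of arrays did not overlap, with LMP1 highest and naive control lowest. It rose by 1.43 ± 0.18 (adjusted p = 0.000673) with CD40 and by 0.57 ± 0.18 (adjusted p = 0.0482) with LMP1, the latter close to the threshold and lost with the replicate number as a block or without YFP control 2 (0.38) or any array of the other 3 groups (adjusted p up to 0.26). Ndufs1, the largest of the core subunits, read 7.77 and 7.36 in YFP control, 8.37 and 8.29 in LMP1, 8.20 and 7.90 in naive control and 8.41 and 8.54 in CD40-activated cells. YFP control was lowest, and the change was 0.77 ± 0.19 (adjusted p = 0.0168) with LMP1, not called without YFP control 2 or either LMP1 array (up to 0.127), and 0.43 ± 0.19 (adjusted p = 0.172) with CD40. Ndufs7, which also carries a cluster near ubiquinone, read 11.02 and 11.09 in YFP control, 11.35 and 11.41 in LMP1, 9.52 and 9.63 in naive control and 10.05 and 9.77 in CD40-activated cells. It split by array set: the change was 0.33 ± 0.17 (adjusted p = 0.208) with LMP1 and 0.34 ± 0.17 (adjusted p = 0.212) with CD40, while YFP control exceeded naive control by 1.48 ± 0.17 (adjusted p = 0.000466). Ndufs3, a core subunit without a cofactor, read 7.05 and 7.19 in YFP control, 7.39 and 7.18 in LMP1, 6.90 and 6.15 in naive control and 6.83 and 6.73 in CD40-activated cells and had no call.

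The accessory subunits of complex I surround the core and are needed for its assembly and stability. Of 25 such members 11 rose with LMP1 (44%; 14.9% of all and 27.7% of bright genes) and 11 with CD40 activation (44%; 11% and 21.1%). Ndufb9, on the membrane arm, had the largest LMP1 change of all members and read 8.74 and 7.90 in YFP control, 9.95 and 9.95 in LMP1, 9.10 and 9.04 in naive control and 10.39 and 10.05 in CD40-activated cells. Both activated groups were above both controls, and the change was 1.63 ± 0.26 (adjusted p = 0.0013), a 3.1-fold difference, with LMP1 and 1.15 ± 0.26 (adjusted p = 0.0126) with CD40. The CD40 call was lost without CD40-activated 1 or either naive control array (adjusted p up to 0.12). Ndufc2, a membrane-arm subunit, read 9.33 and 9.19 in YFP control, 10.55 and 10.63 in LMP1, 8.28 and 7.98 in naive control and 9.16 and 9.45 in CD40-activated cells. It rose by 1.33 ± 0.18 (adjusted p = 0.000605) and 1.18 ± 0.18 (adjusted p = 0.00199), with LMP1 highest, naive control lowest and the other groups overlapping at about the same level. Ndufc1, another membrane-arm subunit, read 6.37 and 6.21 in YFP control, 7.38 and 7.40 in LMP1, 5.56 and 5.80 in naive control and 7.25 and 7.02 in CD40-activated cells and rose by 1.10 ± 0.17 (adjusted p = 0.00133) and 1.46 ± 0.17 (adjusted p = 0.000493).

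Ndufa12, which sits on the peripheral arm, read 8.16 and 7.49 in YFP control, 8.56 and 8.75 in LMP1, 6.75 and 6.88 in naive control and 8.40 and 8.16 in CD40-activated cells. Naive control was lowest, and the change was 1.47 ± 0.23 (adjusted p = 0.00199) with CD40 and 0.83 ± 0.23 (adjusted p = 0.0245) with LMP1, the latter 0.50 and not called without YFP control 2, and not called without either LMP1 array (adjusted p up to 0.166). Ndufa9 and Ndufa10, both exposed to the matrix, rose by 1.40 and 0.96 with LMP1 and by 0.77 and 1.41 with CD40, the third of these lost without naive control 2 or either CD40-activated array (up to 0.146). Ndufb6 rose by 1.06 ± 0.18 (adjusted p = 0.00197) with LMP1 and stood at 0.28 ± 0.18 (adjusted p = 0.34) with CD40, from 7.92 and 7.59 in YFP control, 8.83 and 8.79 in LMP1, 7.08 and 6.91 in naive control and 7.36 and 7.18 in CD40-activated cells. The difference of those changes was 0.78 ± 0.25 (adjusted p = 0.0941). Ndufv3, the small accessory partner of the NADH-binding subunits, did differ between the responses, and read 7.36 and 7.66 in YFP control, 7.23 and 7.48 in LMP1, 6.62 and 6.34 in naive control and 7.53 and 7.32 in CD40-activated cells. Naive control alone stood apart, below the other 6 arrays. Its change was -0.16 ± 0.19 (adjusted p = 0.629) with LMP1, 0.95 ± 0.19 (adjusted p = 0.00814) with CD40 and -1.10 ± 0.27 for the difference (adjusted p = 0.0362), a call lost without YFP control 2, naive control 2 or any LMP1 or CD40-activated array (up to 0.184) and with the replicate block (0.0509).

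Ndufa1 is a small membrane-anchored subunit, and Ndufa4 was named for complex I and has since been placed with complex IV. Ndufa1 read 6.61 and 5.51 in YFP control, 7.47 and 7.51 in LMP1, 7.93 and 7.72 in naive control and 8.62 and 8.46 in CD40-activated cells. All arrays of the earlier set were below all of the new set, within which CD40-activated was the higher group. It rose by 1.43 ± 0.30 (adjusted p = 0.00629) with LMP1, or by 0.88 without YFP control 2, and stood -1.05 ± 0.30 (adjusted p = 0.0414) in LMP1 against CD40-activated cells, a call that any left-out LMP1, CD40-activated or naive control array ended (up to 0.221). Ndufa4 read 8.72 and 8.05 in YFP control, 9.64 and 9.90 in LMP1, 9.66 and 9.71 in naive control and 10.77 and 10.74 in CD40-activated cells. It rose by 1.39 ± 0.22 (adjusted p = 0.00149) with LMP1 and by 1.07 ± 0.22 (adjusted p = 0.00907) with CD40, the latter not called without either CD40-activated array (up to 0.0738). Ndufa4l2, a relative induced by hypoxia in other cells, was below the array median on all arrays at 4.35 and 4.71 in YFP control, 4.89 and 4.48 in LMP1, 5.10 and 5.23 in naive control and 4.51 and 4.52 in CD40-activated cells. It was the only member that fell with CD40 activation, by -0.65 ± 0.20 (adjusted p = 0.0485), and the call was lost with the replicate block, array medians or within-set quantiles and without any LMP1, naive control or CD40-activated array (up to 0.201).

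Complex II, which is also the succinate dehydrogenase of the citric acid cycle, has 4 subunits, all encoded in the nucleus and all measured. Sdha, the flavoprotein that oxidises succinate, read 10.20 and 9.84 in YFP control, 10.36 and 10.32 in LMP1, 9.95 and 10.05 in naive control and 10.21 and 10.36 in CD40-activated cells. Each activated group lay just above its own control, and neither the change with LMP1, 0.32 ± 0.18 (adjusted p = 0.243), nor that with CD40, 0.29 ± 0.18 (adjusted p = 0.318), was called. Sdhb, the iron-sulphur subunit, read 7.80 and 7.90 in YFP control, 8.23 and 8.54 in LMP1, 7.57 and 7.89 in naive control and 8.39 and 8.35 in CD40-activated cells. It changed by 0.54 ± 0.18 (adjusted p = 0.0633) with LMP1 and rose by 0.64 ± 0.18 (adjusted p = 0.0386) with CD40, a call lost with within-set quantiles (0.39) and without naive control 1 or any LMP1 or CD40-activated array (up to 0.184). Sdhc and Sdhd anchor the others in the membrane. Sdhc read 7.94 and 8.55 in YFP control, 8.60 and 8.42 in LMP1, 7.09 and 7.17 in naive control and 8.18 and 7.85 in CD40-activated cells, with naive control below the other groups. Its change was 0.27 ± 0.22 (adjusted p = 0.455) with LMP1 and 0.89 ± 0.22 (adjusted p = 0.0222) with CD40, the latter lost without any naive control or CD40-activated array (up to 0.178). Sdhd read 8.59 and 8.36 in YFP control, 9.52 and 9.62 in LMP1, 8.37 and 8.16 in naive control and 9.32 and 9.14 in CD40-activated cells. LMP1 and CD40-activated cells were above both controls, by 1.10 ± 0.17 (adjusted p = 0.00138) and 0.97 ± 0.17 (adjusted p = 0.00427), the latter lost without CD40-activated 1 (adjusted p = 0.0564).

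In complex III, the core proteins Uqcrc1 and Uqcrc2 rose in both activated groups. Uqcrc1 read 9.68 and 8.84 in YFP control, 10.81 and 10.66 in LMP1, 8.98 and 8.94 in naive control and 9.83 and 9.71 in CD40-activated cells and rose by 1.48 ± 0.25 (adjusted p = 0.00188) with LMP1 and by 0.81 ± 0.25 (adjusted p = 0.0491) with CD40, the latter lost without any LMP1, naive control or CD40-activated array (up to 0.228). Uqcrc2 read 10.22 and 10.35 in YFP control, 11.06 and 11.06 in LMP1, 9.10 and 9.07 in naive control and 9.94 and 10.01 in CD40-activated cells and rose by 0.78 ± 0.16 (adjusted p = 0.00512) and 0.89 ± 0.16 (adjusted p = 0.00363), the former lost without either LMP1 array (up to 0.0557). LMP1 cells were above every other array for both. Uqcrfs1, the Rieske iron-sulphur protein, read 6.26 and 5.88 in YFP control, 6.84 and 6.90 in LMP1, 6.37 and 6.61 in naive control and 6.58 and 7.10 in CD40-activated cells. Its change was 0.80 ± 0.22 (adjusted p = 0.0239) with LMP1, lost without YFP control 2 or either LMP1 array (up to 0.137), and 0.35 ± 0.22 (adjusted p = 0.318) with CD40.

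Uqcrq, a small subunit next to cytochrome b, read 6.32 and 6.07 in YFP control, 7.44 and 7.44 in LMP1, 6.51 and 6.49 in naive control and 6.61 and 6.61 in CD40-activated cells. LMP1 cells stood alone above the other 6 arrays, which lay between 6.07 and 6.61. The change was 1.25 ± 0.16 (adjusted p = 0.000446) with LMP1, a 2.37-fold difference, and 0.11 ± 0.16 (adjusted p = 0.701) with CD40. The difference of the changes, 1.14 ± 0.23 (adjusted p = 0.015), was lost without any LMP1 or CD40-activated array (up to 0.0874). The hinge protein gene Uqcrh changed by 0.45 ± 0.28 (adjusted p = 0.297) and 0.28 ± 0.28 (adjusted p = 0.556), and Uqcr11 by 0.40 ± 0.27 (adjusted p = 0.345) and 0.27 ± 0.27 (adjusted p = 0.561). The pseudogene Uqcrh-ps1 was below the array median everywhere.

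**Figure D4:**
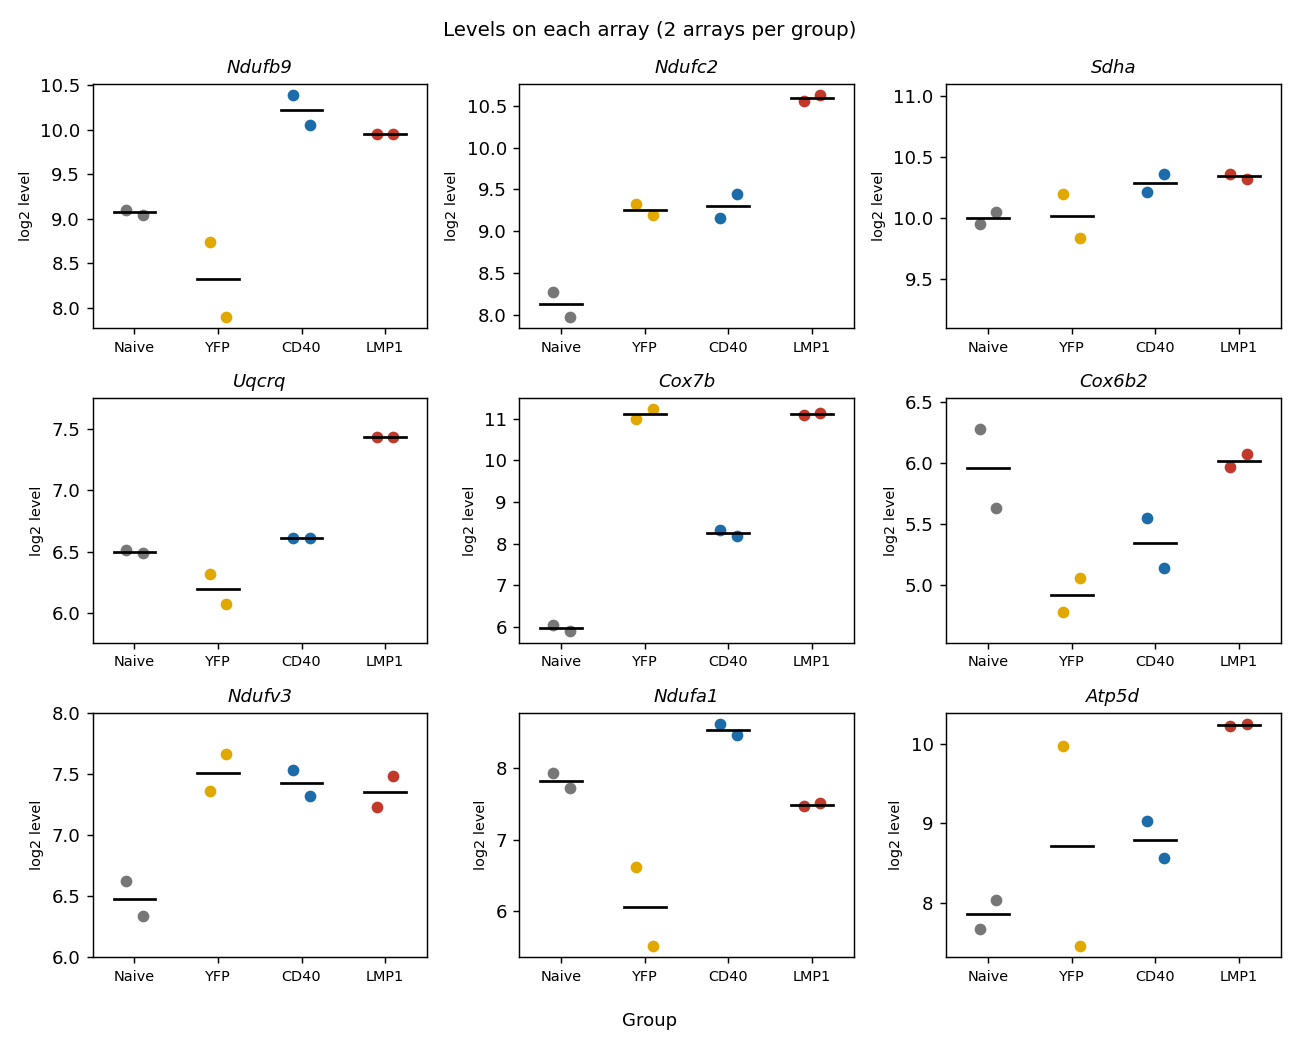
Log2 level on each array (points) of 9 members by group, with the group mean (bar); each panel has its own vertical axis, which does not start at 0. Ndufb9 and Ndufc2 rose in both activated groups, Uqcrq with LMP1, Cox7b with CD40 activation and between the controls, and the YFP control points of Atp5d are 9.97 and 7.46.

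Complex IV, cytochrome c oxidase, wraps a mitochondrially encoded core in nuclear subunits, several of which have a widely expressed form and one restricted to muscle, lung or testis. Of 9 widely expressed members 6 rose with LMP1 (66.7%, median 0.82) and 5 with CD40 activation (55.6%, median 0.79). Of bright genes 27.7% and 21.1% rose. Of 7 restricted isoforms 1 rose with LMP1 (14.3%, near the 14.9% of all genes) and 0 with CD40 (11% of all genes). Several of these isoforms were dim, as given below. Cox5a, which faces the matrix, read 7.92 and 7.15 in YFP control, 9.11 and 9.20 in LMP1, 8.15 and 7.84 in naive control and 9.18 and 9.35 in CD40-activated cells. Both activated groups were above both controls, by 1.62 ± 0.25 (adjusted p = 0.00106) and 1.27 ± 0.25 (adjusted p = 0.00618), the latter lost without naive control 2 or CD40-activated 2 (up to 0.0688). Cox7a2, the non-muscle form of subunit VIIa, read 8.84 and 7.69 in YFP control, 9.75 and 9.96 in LMP1, 8.19 and 7.69 in naive control and 8.58 and 8.73 in CD40-activated cells. It rose by 1.59 ± 0.33 (adjusted p = 0.0059) with LMP1, by 1.02 without YFP control 2, and was not called without LMP1 2 (adjusted p = 0.0514), while the change with CD40 was 0.72 ± 0.33 (adjusted p = 0.174).

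Cox5b, the zinc-binding subunit, rose by 1.00 ± 0.20 (adjusted p = 0.00484) and 0.79 ± 0.20 (adjusted p = 0.0226) on its bright probe set. A second, dim probe set of Cox5b gave 0.83 and -0.32, and with the mean of both the CD40 change was 0.24 and not called. That call was also lost with within-set quantiles (0.54, adjusted p = 0.085) and without naive control 2 or any LMP1 or CD40-activated array (up to 0.178). Cox4i1, the regulatory subunit, changed by 0.92 ± 0.22 (adjusted p = 0.0121) and 0.42 ± 0.22 (adjusted p = 0.228), and Cox6a1 by 0.82 ± 0.22 (adjusted p = 0.0223) and 0.70 ± 0.22 (adjusted p = 0.055). Neither LMP1 call held without YFP control 2 or LMP1 2 (up to 0.131 and 0.146), nor that of Cox6a1 without LMP1 1. Cox6b1, which faces the intermembrane space, rose by 0.66 ± 0.20 (adjusted p = 0.0406) with LMP1 and by 1.07 ± 0.20 (adjusted p = 0.00528) with CD40. The former was lost with the replicate block, with within-set quantiles (0.41) and without YFP control 1 or either LMP1 array (up to 0.2), the latter without CD40-activated 1. Cox8a, a very small subunit, changed by 0.42 ± 0.17 (adjusted p = 0.111) and 0.96 ± 0.17 (adjusted p = 0.00411), the CD40 call being lost without CD40-activated 1 (0.0584).

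Cox7b, a small subunit encoded on the X chromosome, had the widest range of all members, at 10.98 and 11.22 in YFP control, 11.08 and 11.14 in LMP1, 6.05 and 5.89 in naive control and 8.33 and 8.17 in CD40-activated cells. The LMP1 and YFP control arrays overlapped near 11, CD40-activated arrays lay near the middle and naive control was lowest. The change was 0.01 ± 0.17 (adjusted p = 0.978) with LMP1 and 2.28 ± 0.17 (adjusted p = 4.16e-05) with CD40, and YFP control exceeded naive control by 5.13 ± 0.17 (adjusted p = 4.12e-07). The difference of the LMP1 and CD40 changes was -2.27 ± 0.24 (adjusted p = 0.000567) and held without any 1 array. A second, dimmer Cox7b probe set read 5.30 and 5.78 in YFP control, 5.97 and 6.02 in LMP1, 3.85 and 4.03 in naive control and 5.82 and 5.43 in CD40-activated cells. On it CD40-activated cells were at the level of the earlier set: YFP control exceeded naive control by 1.60, CD40-activated cells exceeded naive control by 1.69, and LMP1 exceeded CD40-activated cells by 0.37, against 2.86 on the bright one. With the mean of both probe sets the last value was 1.61 and that between the controls 3.37.

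Among the restricted isoforms, Cox6b2, the testis form of subunit VIb, read 4.78 and 5.06 in YFP control, 5.97 and 6.07 in LMP1, 6.28 and 5.63 in naive control and 5.55 and 5.14 in CD40-activated cells. Both LMP1 arrays were above both YFP control arrays and within the naive control range. It rose by 1.10 ± 0.24 (adjusted p = 0.00808) with LMP1, was -0.61 ± 0.24 (adjusted p = 0.116) with CD40, and differed between them by 1.71 ± 0.34 (adjusted p = 0.014). The first call was lost without LMP1 2 (0.066), the difference without either LMP1 array or CD40-activated 2 (up to 0.0857). The others had no call. Cox4i2, the lung form, read 6.16 and 6.34 in YFP control, 6.11 and 6.04 in LMP1, 5.83 and 6.10 in naive control and 5.79 and 6.06 in CD40-activated cells. Cox6a2, a heart and muscle form, read 6.05 and 6.46 in YFP control, 6.43 and 6.54 in LMP1, 5.67 and 6.0 in naive control and 6.06 and 5.25 in CD40-activated cells. Both lay near the array median. Cox7a1 and Cox8b, also muscle forms, and Cox7b2 and Cox8c, testis forms, lay below the array median on all 8 arrays. Cox7a1 read 4.99 and 4.95 in YFP control, 5.33 and 4.86 in LMP1, 4.57 and 4.97 in naive control and 4.72 and 4.61 in CD40-activated cells. Cox8b read 4.74 and 4.74 in YFP control, 4.54 and 4.83 in LMP1, 4.59 and 4.46 in naive control and 4.58 and 4.77 in CD40-activated cells. Cox7b2 was the dimmest of them, at 2.45 and 2.43 in YFP control, 2.50 and 2.14 in LMP1, 2.45 and 3.23 in naive control and 2.59 and 2.35 in CD40-activated cells. Cox8c read 4.57 and 4.53 in YFP control, 4.43 and 4.48 in LMP1, 4.60 and 4.57 in naive control and 4.57 and 4.46 in CD40-activated cells.

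Complex V makes ATP in its F1 head, where alpha and beta subunits alternate. Of 5 head members 3 rose with LMP1 (median 1.23) and 1 with CD40 activation (0.62), the latter, 20%, near the 21.1% of bright genes. Atp5a1, the alpha subunit, read 10.49 and 9.42 in YFP control, 11.50 and 11.49 in LMP1, 10.51 and 10.49 in naive control and 11.07 and 11.16 in CD40-activated cells. It rose by 1.54 ± 0.29 (adjusted p = 0.00343) with LMP1, or by 1.01 without YFP control 2, which lay below the other 7 arrays, and changed by 0.62 ± 0.29 (adjusted p = 0.182) with CD40. Atp5b, the catalytic beta subunit, read 11.85 and 11.06 in YFP control, 12.72 and 12.64 in LMP1, 10.69 and 10.72 in naive control and 11.63 and 11.62 in CD40-activated cells. LMP1 was highest and naive control lowest, and the change was 1.23 ± 0.24 (adjusted p = 0.00408) with LMP1 and 0.92 ± 0.24 (adjusted p = 0.0238) with CD40, the latter lost without any naive control or CD40-activated array (up to 0.132). Atp5c1, the gamma shaft, rose by 0.72 ± 0.20 (adjusted p = 0.0277) with LMP1, a call lost without YFP control 2 or any LMP1 or CD40-activated array (up to 0.207). Atp5d, the delta subunit, read 9.97 and 7.46 in YFP control, 10.22 and 10.25 in LMP1, 7.68 and 8.04 in naive control and 9.03 and 8.56 in CD40-activated cells. YFP control 2 was the lowest of the 8 arrays, while YFP control 1 lay just under LMP1, the change with LMP1 was 1.52 ± 0.60 (adjusted p = 0.104), and without YFP control 2 it was 0.27. A second Atp5d probe set also had YFP control 2 below YFP control 1, at 8.10 and 9.61.

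The c ring, which turns as protons pass, is built from 1 mature protein that 3 genes encode. Atp5g1 read 5.44 and 6.59 in YFP control, 6.23 and 6.12 in LMP1, 6.98 and 7.61 in naive control and 6.51 and 5.72 in CD40-activated cells. It was highest in naive control, changed by 0.16 ± 0.38 (adjusted p = 0.813) with LMP1 and by -1.18 ± 0.38 (adjusted p = 0.0592) with CD40, and stood -1.28 ± 0.38 (adjusted p = 0.0427) in YFP against naive control, which was -0.71 and not called without YFP control 1 and not called without any array of another group. Atp5g2 read 11.47 and 10.93 in YFP control, 11.81 and 11.75 in LMP1, 10.37 and 10.41 in naive control and 11.79 and 11.59 in CD40-activated cells and rose by 1.30 ± 0.20 (adjusted p = 0.00193) with CD40, against 0.58 ± 0.20 (adjusted p = 0.0651) with LMP1. Atp5g3 read 8.15 and 7.97 in YFP control, 8.97 and 8.92 in LMP1, 7.72 and 7.71 in naive control and 8.60 and 8.52 in CD40-activated cells. Both activated groups were above both controls, by 0.89 ± 0.16 (adjusted p = 0.00274) and 0.85 ± 0.16 (adjusted p = 0.00524), the latter lost without CD40-activated 1 (adjusted p = 0.0595). Thus 2 of the 3 genes rose with CD40 activation, and Atp5g1 had the opposite sign.

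In the stalk and membrane part of the synthase, 2 of 7 members rose with LMP1, near the share of bright genes (28.6% against 27.7%), and 3 with CD40 activation (42.9% against 21.1%). Atp5pb, the b subunit of the peripheral stalk, read 9.06 and 9.03 in YFP control, 10.12 and 10.07 in LMP1, 8.77 and 8.91 in naive control and 9.96 and 9.95 in CD40-activated cells. The activated groups were above the controls by 1.05 ± 0.16 (adjusted p = 0.000926) and 1.12 ± 0.16 (adjusted p = 0.00111), and both calls held without any 1 array. Atp5j, also in that stalk, rose by 1.41 ± 0.18 (adjusted p = 0.000749) with CD40 and by 0.68 ± 0.18 (adjusted p = 0.0229) with LMP1, the latter at 0.36 and not called with within-set quantiles, and not called without YFP control 1 or either LMP1 array (up to 0.141). Atp5h, the d subunit, rose by 0.78 ± 0.20 (adjusted p = 0.026) with CD40, a call lost without any LMP1, naive control or CD40-activated array (up to 0.157). Atp5mpl, a small proteolipid of the membrane part, read 7.30 and 5.96 in YFP control, 7.57 and 7.57 in LMP1, 7.86 and 7.69 in naive control and 8.69 and 8.50 in CD40-activated cells. All arrays of the earlier set were below all of the new set, and YFP control 2 was lowest. The changes were 0.94 ± 0.34 (adjusted p = 0.0796) and 0.82 ± 0.34 (adjusted p = 0.139). Atp5k, Atp5j2 and Atp5o had no call in any comparison.

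Promoters were searched for motifs as a description only, without a test. RefSeq promoter sequences (GRCm38.p6) matched 62 of the 77 members. In the 250 bases before the start, on both strands, the palindromic core motif of nuclear respiratory factor 1, a regulator of respiratory genes, spelled out below in capitals, was found for 4 members (6.45%) and for 0.877% of 27025 genes. The motif CCGGAAGT of the ETS family, to which the regulator GABP belongs, was found for 3 members (4.84%; 3.23% of all), CACGTG, an E-box as bound by Myc, for 5 (8.06%; 6.86%) and the YY1 motif for 0 (0.248% of all). A match is a description of these letters and not a binding site. The median share of G and C in these windows was 56% for members and 52.4% for all promoters. Its part in the motif shares was not tested. The windows around the 4 matches to the first motif, which is in capitals, are shown 5′ to 3′ on the strand of the gene.
Atp5g2, chr15:102671048-102671134, minus strand: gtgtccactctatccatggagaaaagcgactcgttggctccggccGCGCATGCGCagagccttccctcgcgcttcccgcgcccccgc
Atp5k, chr5:108434400-108434494, minus strand: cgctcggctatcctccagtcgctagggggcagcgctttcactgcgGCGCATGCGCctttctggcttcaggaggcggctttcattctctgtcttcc
Cox6a1, chr5:115349066-115349165, minus strand: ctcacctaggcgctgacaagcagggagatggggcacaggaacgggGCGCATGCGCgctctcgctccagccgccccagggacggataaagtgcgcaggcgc
Ndufa11, chr17:56717657-56717756, plus strand: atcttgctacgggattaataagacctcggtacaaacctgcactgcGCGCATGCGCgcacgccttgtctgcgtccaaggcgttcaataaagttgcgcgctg
The motif begins 42 bases before the start of Atp5g2, 50 before Atp5k, 162 before Cox6a1 and 60 before Ndufa11. These 4 genes did not move alike: Atp5g2 rose with CD40 activation, Cox6a1 with LMP1, Ndufa11 was 0.09 ± 0.38 with LMP1 and 1.11 ± 0.38 with CD40 without a call in either, and Atp5k was 0.11 ± 0.27 and 0.10 ± 0.27.

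LMP1 and CD40-activated cells were also compared with each other, as the series was designed to do. Of the 77 members 20 were higher in LMP1 cells and 2 lower, where 9.66% of all genes were higher, 17.5% of bright genes higher, and 5.17% of all and 8.97% of bright genes lower. The median difference was 0.36 against 0.00 over all genes. Of the 7 B cell markers 5 were lower in LMP1 cells (median -0.98), and their part in the result was not tested. Complex I had 11 of 33 higher and 2 lower, complex III 3 of 7, complex IV 4 of 17 and complex V 2 of 16 higher, and no complex II member passed. The share in complex V was below that of bright genes. The largest differences were those of Cox7b, at 2.86 ± 0.17 on its bright probe set, Ndufs4, Ndufb6 and Ndufs7. Ndufs4, an accessory subunit whose loss causes Leigh syndrome, read 8.81 and 9.33 in YFP control, 9.84 and 9.55 in LMP1, 7.41 and 7.27 in naive control and 7.92 and 7.99 in CD40-activated cells. LMP1 exceeded CD40-activated cells by 1.74 ± 0.21 (adjusted p = 0.000461), and YFP control exceeded naive control by 1.73 ± 0.21 (adjusted p = 0.000593). Ndufb6 was 1.54 ± 0.18 (adjusted p = 0.000414) and Ndufs7 1.47 ± 0.17 (adjusted p = 0.00038) higher. The lower members were Ndufa1 (-1.05) and Ndufa4 (-0.99), the latter lost without any LMP1 or CD40-activated array (up to 0.149). With only these groups in the fit 35 were higher and 6 lower. Leaving out LMP1 1, LMP1 2, CD40-activated 1 or CD40-activated 2 left 8, 9, 10 and 9 higher and 0 lower. The call held without any 1 array for Ndufb6, Ndufc2, Ndufs4, Ndufs7, Ndufv2, Uqcrc2, Cox5b and Cox7b. For all of these but Ndufc2, every array of the earlier set, YFP control included, lay above every array of the new set. This did not hold on the second, dimmer probe sets of Cox5b and Cox7b. Against YFP control, the LMP1 changes of Ndufs4 (0.63), Ndufs7 (0.33) and Cox7b (0.01) were not called. Array set, strain, sex, TAT-Cre and sort cannot be told apart from the groups here.

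The controls differed as well, in a comparison where culture, strain, sex, TAT-Cre, sort and array set cannot be told apart. YFP control exceeded naive control for 21 members (27.3%) and was below it for 7 (9.09%). Of all genes 10.9% were higher and 7.59% lower, and of bright genes 18.2% and 9.32%. The share lower was thus near that of bright genes. Complex I had 13 of 33 members higher and 2 lower, complex V 2 of 16 higher and 3 lower. The share higher in complex V was below that of bright genes. After Cox7b, the highest differences were those of Ndufv2 (2.20), Ndufs4 (1.73) and Ndufs8 (1.64, or 0.98 without YFP control 1, and not called without naive control 2). Cox5b was also called higher, but with the mean of its probe sets it was at 0.33 and not called. The lower ones were Ndufa1 (-1.77), Ndufa4 (-1.30), Atp5g1 (-1.28), Atp5mpl (-1.15), Cox6b2 (-1.04), Atp5c1 (-0.90) and the pseudogene Uqcrh-ps1 (-0.77). Among these 7 calls, those of Ndufa1 and Ndufa4 held without any 1 array, and among the 21 upward calls 14 did. Without YFP control 2 Atp5mpl was at -0.48 and not called, and without YFP control 1 at -1.82. T and NK cell markers were lower in YFP than in naive control, 7 of 7 and 7 of 8, and their part in the result was not tested. Without YFP control 1, 11 members were lower, and without naive control 1 or naive control 2, 4.

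Set against the cultured YFP control, CD40-activated cells had 13 members higher (16.9%) and 4 lower (5.19%). Of all genes 7.75% were higher and 6.06% lower, and of bright genes 14.5% and 8.63%. The share higher was thus near that of bright genes, and the share lower no more than that of all genes. The highest were Ndufa1 (2.48 ± 0.30 (adjusted p = 0.000781)), Ndufa4 (2.37 ± 0.22 (adjusted p = 0.000224)), Atp5mpl (1.97 ± 0.34 (adjusted p = 0.00497)) and Ndufb9 (1.90 ± 0.26 (adjusted p = 0.00138)), of which Atp5mpl was at 1.30 without YFP control 2 and not called without CD40-activated 1 (0.0573). The lower members were Cox7b (-2.85), Ndufs7 (-1.15), Ndufs4 (-1.12) and Ndufv2 (-0.78), the last 2 not called without either CD40-activated array. On its second, dimmer probe set Cox7b was not lower, at 0.085. Without YFP control 1 there were 28 higher, without YFP control 2 8 lower, and without CD40-activated 1 or CD40-activated 2, 6 and 5 higher and 2 lower each. These 3 comparisons across the array sets share arrays with those within the sets. For 10 members all arrays of the earlier set lay above all of the new one (13%, against 6.01% of all genes and 9.17% of bright genes): Ndufs3, Ndufs4, Ndufs7, Ndufv2, Ndufb3, Ndufb6, Uqcrc2, Cox5b, Cox7b and Cox8a. The reverse held for Ndufa1, Cox7a2l and Atp5mpl (3.9%, against 5.48% of all and 5.8% of bright genes). On the second, dimmer probe sets of Cox5b and Cox7b the array sets overlapped.

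Replicates of the members were closest in LMP1 and CD40-activated cells, where 0 members were more than 1 log2 apart. Between the YFP control arrays 8 were: Ndufs8, Ndufa1, Ndufa11, Cox7a2, Atp5a1, Atp5d, Atp5g1 and Atp5mpl. Between the naive controls it was Ndufb8, a membrane-arm subunit, at 7.18 and 5.91. YFP control 2 was the lower array for 48 of 77 members, with a median difference of -0.16, against 0.06 over all genes.

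Probe sets with a second symbol gave further values, with no count taken from them. The probe set of Ndufs6 and Ndufs6b changed by 1.75 with LMP1 and 1.00 with CD40, that of Uqcr10 and Gm6293 by 1.09 and 1.12, and that of Uqcrb and Gm10767 by 0.98 and 0.23. For Cox6c and Gm6265 the brighter of 2 probe sets changed by 1.08 and 1.66 and the dimmer by 1.08 and 0.37. The probe set shared by Ndufs1 and Ino80dos, dim, changed by -0.61 and 0.01. Processed pseudogenes are common for these families, and a probe set can read a near-identical copy. Second probe sets of single members had the sign of the first in both comparisons for Ndufa8 (0.48 and 0.76), Atp5d (0.97 and 0.78), Atp5g2 (0.64 and 1.00) and Atp5h (0.34 and 0.50), and the opposite sign for Atp5e (-0.12 and -0.38 against 0.53 and 0.11).

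The assembly factors and fuel pathways that serve these complexes were counted from the same fits, beside 14.9% of all and 27.7% of bright genes that rose with LMP1 and 11% and 21.1% with CD40. Of 15 complex I assembly factors 11 rose with LMP1 (73.3%), 4 rose with CD40 activation (26.7%, near the share of bright genes), and 0 fell. Acad9, an acyl-CoA dehydrogenase relative that helps to build complex I, read 7.26 and 6.59 in YFP control and 8.62 and 8.54 in LMP1 cells, and changed by 1.66 with LMP1 and 0.44 with CD40. The difference of those changes was 1.22 (adjusted p = 0.0387), a call lost without any LMP1, naive control or CD40-activated array (up to 0.159). Of 30 assembly factors of complexes II to V, 15 rose (50%) and 1 fell with LMP1, and 11 rose with CD40 (36.7%). Atpaf2, a chaperone of the F1 head, rose by 1.67, Cmc2 by 1.52 and the copper chaperone Sco1 by 1.44 with LMP1, while Cox20 fell (-1.12), a call lost without YFP control 2 (-0.57) or either LMP1 array. With CD40, Cox16 rose by 1.17, though not without any LMP1, naive control or CD40-activated array (adjusted p up to 0.208), Lrpprc, which stabilises mitochondrial transcripts, by 1.11 and Tmem70 by 1.10.

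Electron carriers and the exchange of ATP rose for 14 of 19 genes with LMP1 (73.7%) and for 5 with CD40 (26.3%, near the share of bright genes). Cytochrome c1, Cyc1, a complex III subunit whose symbol is outside the rule for members, rose by 1.85 and the ADP/ATP carrier Slc25a4 by 1.85 with LMP1. With CD40 the carriers Slc25a5 (1.27) and Slc25a4 (1.07) and the electron transfer flavoprotein Etfa (1.06) rose, the last 2 not called without CD40-activated 2 (0.0868 and 0.0503). Of 15 genes of the citric acid cycle and pyruvate dehydrogenase 12 rose with LMP1 (80%) and 6 with CD40 (40%). Idh3a, a subunit of the NADH-forming isocitrate dehydrogenase, read 7.34 and 7.33 in YFP control, 9.48 and 9.50 in LMP1, 6.75 and 6.80 in naive control and 8.69 and 8.90 in CD40-activated cells. Activated cells were thus above both controls, by 2.16 and 2.02. Pdha1 rose by 1.59 with LMP1, and Fh1, the fumarase, by 1.42 with CD40.

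Among 18 regulators of mitochondrial biogenesis 7 rose (38.9%) and 1 fell with LMP1, and 2 rose with CD40 (11.1%, no more than the share of all genes). Tfam, which packages mitochondrial DNA, read 7.36 and 5.46 in YFP control against 8.24 and 7.97 in LMP1 cells, a change of 1.70 (adjusted p = 0.0245), with YFP control 2 far below the other arrays. Without YFP control 2 the change was 0.75 (adjusted p = 0.0258), and without either LMP1 array it was not called (up to 0.139). Myc, a growth regulator, rose by 1.66 with LMP1 and was 0.08 with CD40, and the difference of 1.58 passed the test (adjusted p = 0.00637). Twnk, the mitochondrial helicase, rose by 1.32, Tfb1m by 1.14, the coactivator Pprc1 by 1.10, Atpif1, the inhibitor of complex V, by 1.06 and Polrmt by 0.54 with LMP1, the last not called without YFP control 2 (0.38) or any LMP1 or CD40-activated array (up to 0.221). With CD40, Tfb2m rose by 0.96 and Tfb1m by 0.75, calls that single left-out arrays ended, either CD40-activated array for both (up to 0.143 and 0.15). Ppargc1a, the coactivator PGC-1 alpha, fell with LMP1 (-1.31), from 7.12 and 7.72 in YFP control to 6.38 and 5.85, while naive control was at 6.07 and 5.99. Nrf1, which encodes nuclear respiratory factor 1, was 0.16 with LMP1 and -0.20 with CD40, and Gabpa 0.41 and 0.12. Gabpb1 (0.32 and 0.07), Ppargc1b (0.40 and 0.33), Esrra (-0.22 and -0.28), Yy1 (0.28 and -0.28), Polg (-0.02 and 0.07), Polg2 (-0.23 and -0.25) and Nnt (0.19 and 0.53) had no call in either comparison, as had Nrf1 and Gabpa.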

How the data were processed

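Per the submitters' processing notes, the authors summarised the arrays with RMA in the oligo package (versions not given), and the values used are their deposited log2 expression levels per probe set, with 2 decimals. The table held 25349 probe sets: 22225 matched 1 symbol of the platform annotation, 616 several and 2508 none. The brightest probe set of each gene was used, which gave 21515 genes. In R 4.3.3, limma 3.58.1 (lmFit, then eBayes at its defaults) fitted a mean for each of the 4 groups to all 8 arrays, with 4 residual and 5.75 prior degrees of freedom. Tests were two-sided, the Benjamini-Hochberg adjustment ran over every gene, and the threshold was 0.05. Array number limits the precision. The procedure was tested on simulated data. The members and related lists were chosen with earlier results of these data known. Values on every array are given for the complex II, core and isoform members and for the 4 highest and 4 lowest called members of each comparison. Alternatives were a replicate block, only the groups compared, trend and robust fitting, a filter at the 25th percentile, array medians, quantiles within each array set, the mean of a gene's probe sets, and each array left out. Where 1 array of a group is left out, the lone array is assumed to vary like the other groups. The labels do not state that replicate numbers pair the arrays.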

Additional observations from a re-analysis of the deposited data

Results flagged for a closer look

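The change with LMP1 and the change with CD40 activation differed by limma's test of the difference (Benjamini-Hochberg over all genes) for 4 members. That is 2.6% of the members in each direction. Of all genes 4.2% passed upward and 4.12% downward, and of bright genes 6.44% and 7.07%, so the members were not above the background. Culture, strain, sex, TAT-Cre, sort and array set cannot be told apart from these differences. As given above, the calls of Cox6b2, Uqcrq and Ndufv3 were lost with single arrays left out. Cox7b, a complex IV subunit, differed by -2.27 ± 0.24 (adjusted p = 0.000567): it did not separate LMP1 from YFP control and rose with CD40 activation, on a scale on which the 2 controls already lay 5.13 apart. Its second probe set gave -1.23. Cox6b2, the testis form of a complex IV subunit, differed by 1.71 ± 0.34 (adjusted p = 0.014), with LMP1 cells above YFP control and within the range of naive control. Uqcrq, of complex III, differed by 1.14 ± 0.23 (adjusted p = 0.015), since LMP1 cells alone stood above the other arrays. Ndufv3, of complex I, differed by -1.10 ± 0.27 (adjusted p = 0.0362), with naive control alone below the others. In the T and NK cell lists, 6 of 7 and 6 of 8 markers passed the test of the difference upward, and in the B cell list 4 of 7 downward, and their part in these results was not tested.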

How the results depend on the processing

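Over 6906 recomputed values of single members, 6186 kept their direction and side of the threshold, 218 changed sign with no call in either fit, 316 lost the call, 184 gained one and 2 gained one with the opposite sign. The last 2 concern CD40-activated against YFP control: Ndufs8 stood at 0.63 without YFP control 1 and -0.70 without YFP control 2, and Atp5d at 1.34 and -1.18. With 1 array left out, the members up and down ranged from 18 to 41 and 0 to 1 for LMP1 against YFP control, from 11 to 38 and 0 to 4 for CD40-activated against naive control, from 8 to 24 and 0 to 4 for LMP1 against CD40-activated, from 17 to 25 and 4 to 11 for YFP against naive control, from 5 to 28 and 2 to 8 for CD40-activated against YFP control, and from 0 to 13 and 1 to 6 for the difference of the changes. The count of members that fell with CD40 activation, 1, was 0 with the replicate block, 2 with only the groups compared, 3 with dim genes left out and 0 with array medians subtracted. LMP1 against CD40-activated cells had 35 up and 6 down with only these groups, and 1 down with array medians or within-set quantiles. YFP against naive control had 2 down with only these groups, and CD40-activated against YFP control 8 down with within-set quantiles. The replicate block left 1 member down in the difference of the changes. It gave 33 up for LMP1 against YFP control, of which 32 were among the 34, and 32 up for CD40-activated against naive control. Deviations of same-numbered arrays correlated between -0.10 and 0.07. Crossed replicate numbers, an alternative added after the data were seen, gave 20 up and 3 down for LMP1 against CD40-activated cells. The cause of these shifts was not tested, and fewer arrays leave fewer residual degrees of freedom. With 2 arrays per group and values to 2 decimals, members near the array median carry the least information.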
